A study of Mus musculus with 3 samples.

Results

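Pdgfra-type glioma cells carrying human EGFR were CD45- cells of mouse glioblastoma that held at least 2 UMIs of the human EGFR transgene (hsEGFR) and more UMIs of Pdgfra than of Lgals1. A UMI is a tag that marks 1 captured RNA molecule. Among 20811 deposited cells, 17894 had at least 500 UMIs, at least 500 genes and at most 20% mitochondrial UMIs, 6676 of these came from the CD45- sort, and 436 met the rule. The early sample held 0 of these cells, the medium sample 137 and the large sample 299. Tumors were grown in mice whose alleles included a conditional human EGFR wild-type transgene, constitutive loss of Cdkn2a (Cdkn2a-/-) and a conditional luciferase reporter. Every sample shared the same alleles. Adult animals of a mixed strain background received a Cre lentivirus (TGFa-IRES-iCre or iCre alone) into the striatum, so that Cre acted in cells the virus reached and was not limited to 1 cell type by a promoter in the mouse. The stages early, medium and large were the labels of the deposited library annotation. Each stage was 1 tumor sample with 4 CD45- libraries, the early sample was pooled from animals, and libraries were technical repeats spread over 3 sequencing runs. Differences between stages could therefore not be told apart from differences between animals, and every interval below is a 95% interval that covers counting error only.

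Pdgfra encodes the receptor through which platelet-derived growth factor drives the division of oligodendrocyte progenitor cells. These progenitors arise under the transcription factors Olig1, Olig2 and Sox10. As they commit to differentiation they pass through a stage marked by the receptor Gpr17 and by Bcas1, switch on Neu4, Bmp4 and Tcf7l2, and later make the myelin proteins encoded by Mbp and Mog. Lgals1 encodes galectin-1, which is typical of mesenchymal-type glioma cells. EGFR is a receptor tyrosine kinase that is often amplified in glioblastoma. MHC class I molecules, built from a heavy chain such as H2-K1 or H2-D1 and B2m, present peptides to CD8+ T cells and are raised by interferons.

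The Pdgfra-type cells had a median of 7290 UMIs in the medium sample and 5668 in the large sample. Free RNA was checked in cells that should lack the transgene. At least 2 hsEGFR UMIs were found in 0.0196% of early, 3.61% of medium and 2.55% of large CD45+ cells, with median depths of 1967, 1989.5 and 2115 UMIs, and 61 of the 144 such medium cells and 10 of the 54 such large cells met the whole rule. Among CD45+ cells with at least 5 UMIs of the microglial genes P2ry12, Tmem119 and C1qa, the share with at least 2 hsEGFR UMIs was 0 of 4473 in early (up to 0.0671%), 0.236% in medium and 0.690% in large. Among CD45- cells with at least 5 UMIs of the endothelial genes Cldn5, Pecam1, Flt1 and Cdh5, the share was 1.41% in medium and 1.27% in large. Among CD45- cells with at least 5 UMIs of the oligodendrocyte genes Mog, Mag and Opalin it was 3.31% and 6.28%. Among those with at least 5 UMIs of the same microglial genes it was 0 of 98 in medium but 17 of 45 in large (37.8%), and the reason was not tested. Across all CD45- cells it was 18.8% in medium and 38.2% in large. Scrublet called 80 of the 6676 CD45- cells doublets, 10 of them Pdgfra-type. Of the 436 cells, 78 carried a barcode that another Pdgfra-type cell also carried, 30 shared theirs with a CD45+ cell and 152 with any other cell. Over all 17894 cells past the filter, 1687 barcodes were found in more than 1 library. Whether any cell was counted more than once was not tested, and the intervals treat each cell as independent.

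Pdgfra-type cells made up 8.47% of CD45- cells in the medium sample (137 of 1617, interval 7.16 to 9.94) and 13.0% in the large sample (299 of 2299, interval 11.7 to 14.4). The medium share depended on the filter, at 5.42% with every deposited cell and 6.13% with cells thinned first. The large share was 11.5% with at least 4 hsEGFR UMIs. In the early sample 0 of 2760 cells met the rule, which allows a share of up to 0.109%, and 4 early cells held 2 or more hsEGFR UMIs. The 4 medium libraries gave 6.23%, 8.50%, 9.84% and 9.02%, and the 4 large libraries 13.1%, 11.5%, 13.9% and 14.1%. Each large library was above each medium library, while several intervals of single libraries overlapped. Counted against cells with at least 2 hsEGFR UMIs only, the order turned around: Pdgfra-type cells were 45.1% of 304 such cells in medium and 34.1% of 878 in large. The remaining hsEGFR cells were Lgals1-type (more Lgals1 than Pdgfra), 69 in medium and 357 in large, or held equal counts of both genes, 98 in medium and 222 in large. Sorting and capture can set such shares, and fewer cells of 1 type raise the share of another.

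**Figure D1:**
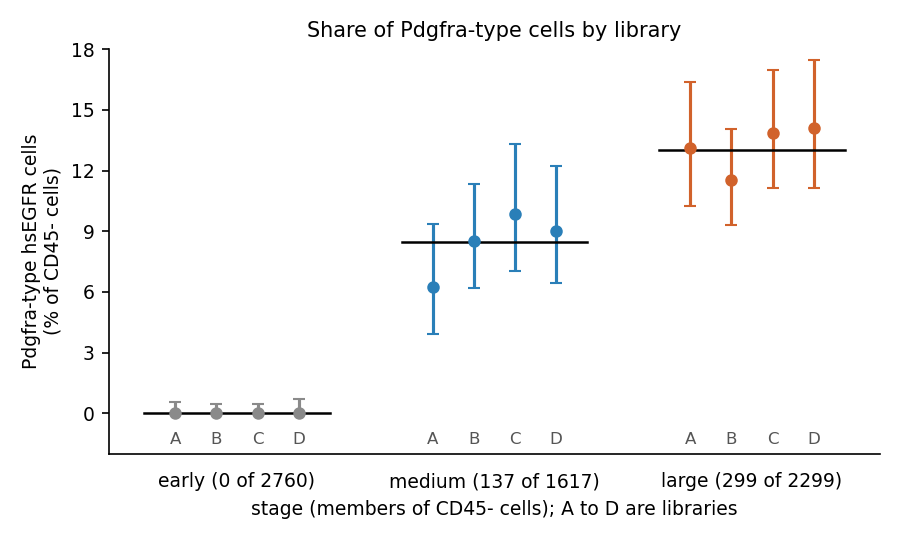
Share of CD45- cells that were Pdgfra-type, in percent on the vertical axis, for each of the 4 libraries (A to D) of the early, medium and large samples. Points are libraries with exact 95% binomial intervals and black lines are the pooled shares: 0% in early, 8.47% in medium and 13.0% in large.

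Cells close to the limits of the rule were few for hsEGFR and many for the Pdgfra difference. With Pdgfra above Lgals1, 20 cells held 1 hsEGFR UMI and stayed outside, and 27 held 2 and were taken. Among cells with at least 2 hsEGFR UMIs, 323 had equal counts of Pdgfra and Lgals1 and stayed outside, 311 of them with 0 UMIs of both genes, whereas 65 cells entered on a difference of 1 UMI. The cells with 0 of both genes had a median of 4054 UMIs, against 7290 and 5668 in the cells that met the rule.

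The genes that chose the cells were present as follows, given as a description because the rule used them. hsEGFR had a median of 11 UMIs per cell in medium, with up to 421 in 1 cell, and 13 in large, with up to 107. Its summed level was 2852, 2682, 3681 and 1870 CPM (UMIs of a gene per 1000000 UMIs) in the medium libraries and 3000, 2741, 2520 and 3081 in the large ones, which overlapped (log2 ratio of large over medium 0.06, interval -0.0031 to 0.13). Pdgfra had medians of 7 and 6 UMIs per cell and summed levels of 1219 and 1292 CPM. Lgals1 was absent from most cells, with a UMI in 12.4% of medium and 11.4% of large cells. The Cre sequence of the lentivirus (iCre) was read in 62.0% of medium and 60.9% of large Pdgfra-type cells, against 8.99% and 20.2% of all other CD45- cells, whose median depth was 2932.5 and 2904 UMIs. The human TGFA sequence (hsTGFA) was read in 0 of 137 medium cells and 1 of 299 large cells, whereas mouse Tgfa stood at 226 and 238 CPM.

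Genes of the oligodendrocyte lineage that the rule did not name were carried at high levels. Gpr17 had a UMI in 66.4% of medium cells (interval 57.9 to 74.3) and 69.2% of large cells (63.7 to 74.4). Bcas1 had a UMI in 61.3% (52.6 to 69.5) and 75.3% (70.0 to 80.0). Olig1 stood at 1547 CPM in medium and 1683 in large, Olig2 at 609 and 563, and Sox10 at 939 and 982. The proteoglycan gene Cspg4, which encodes NG2, stood at 327 and 238. Among genes of later maturation, Mbp stood at 182 and 394. The myelin surface gene Mog was read in 13 medium and 13 large cells only. Other genes of the myelin list were read more often, such as Cldn11, a tight junction gene (537 and 957 UMIs), and Cnp, an enzyme of myelin (872 and 1429). Progenitor and committed progenitor genes were thus high, as the label says, while Mog was at 0 in most cells. The summed myelin list stood at 3916 CPM in medium and 4107 in large, against 4629 and 4267 in Lgals1-type cells. Its sum thus did not set Pdgfra-type cells apart from Lgals1-type cells. In other CD45- cells with 0 hsEGFR UMIs it stood at 50526 and 56844, and the part of free myelin RNA was not tested. Over all medium and large Pdgfra-type cells, the endothelial gene Cldn5 had 0 and 2 UMIs, but Pecam1 had 19 and 60 and Itm2a 26 and 81. The mural genes Pdgfrb, Vtn and Kcnj8 were at 0, but Acta2 had 28 and 2 UMIs, and the collagen genes Col1a1 and Col1a2 had 44 and 51 and 32 and 70. The leukocyte gene Ptprc (CD45) had 4 and 5. At least 3 UMIs of a marker list were read in 3.65% of medium and 6.35% of large cells for endothelial markers, in 8.76% and 2.34% for mural and fibroblast markers, in 4.38% and 4.35% for ependymal and choroid markers, and in 0.73% and 0% for red blood cell markers. For the myelin list the share was 90.5% and 87.6%, and for the astrocyte list, which holds S100b, 92.7% and 71.9%.

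**Figure D2:**
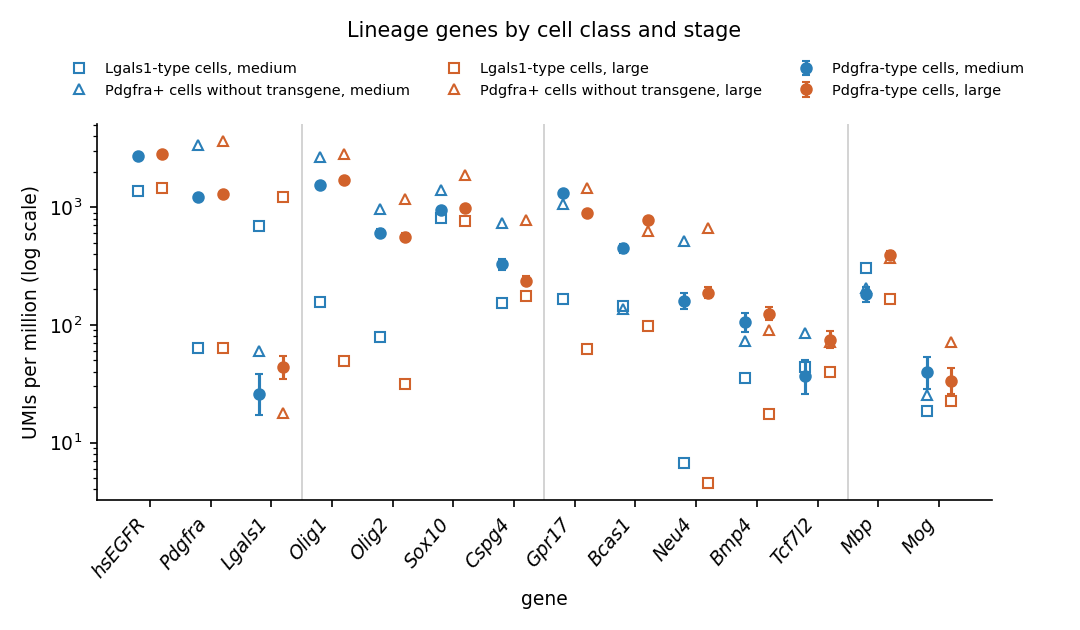
CPM (log scale) of 14 genes in Pdgfra-type cells (filled circles, 95% Poisson intervals), Lgals1-type cells (open squares) and Pdgfra+ cells without transgene UMIs (open triangles), medium in blue and large in orange. Pdgfra-type cells lie nearer to the transgene-free cells than to Lgals1-type cells for Olig1 and Gpr17, and all classes lie close together for Sox10. Genes at 0 are not drawn.

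Within the Pdgfra-type cells, genes of commitment went with Gpr17. Each cell was thinned to 2000 UMIs, which left 124 medium and 261 large cells, and cells were split by their Gpr17 count into 0, 1 and at least 2. In medium 51, 14 and 59 cells fell into these ranges and in large 107, 52 and 102. These are ranges of a count and not cell types. The list of 15 committed progenitor genes, which holds Gpr17 itself, stood at 11.4, 28.2 and 68.0 UMIs per 10000 across the ranges in medium and at 16.2, 27.8 and 69.2 in large, of which the split by Gpr17 fixed a part. Without Gpr17 the list stood at 11.4 (interval 9.40 to 13.6), 23.2 and 40.3 (36.7 to 44.0) in medium and at 16.2 (14.5 to 17.97), 22.8 and 46.1 (43.2 to 49.2) in large. Bcas1 and other genes of the list showed this order. Bcas1 went from 1.27 (interval 0.679 to 2.18) over 3.93 to 7.80 (6.29 to 9.56) per 10000 in medium, and from 3.83 (3.05 to 4.76) over 4.04 to 13.1 (11.6 to 14.8) in large. Bmp4, a secreted growth factor of differentiating progenitors, stood at 0, 0 and 2.03 in medium and at 0.187, 0.385 and 2.94 in large. Neu4, a sialidase, stood at 0.098, 1.79 and 3.47 in medium and at 0.888, 1.92 and 4.22 in large. Sirt2 and Fyn, both linked to oligodendrocyte differentiation, showed the same order in both samples.

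Pdgfra and the transgene did not show that order in both samples. Pdgfra stood at 14.2, 12.9 and 10.8 per 10000 across the Gpr17 ranges in medium and at 13.1, 20.2 and 14.6 in large. hsEGFR stood at 27.8, 26.4 and 23.9 in medium and at 25.7, 31.6 and 31.5 in large. Both genes belong to the rule, and these values are a description.

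Cell cycle genes were lower in the highest Gpr17 range than at 0 Gpr17 UMIs. The G2/M list, 51 genes of mitosis such as Top2a and Mki67, stood at 53.6, 17.1 and 20.9 UMIs per 10000 across the Gpr17 ranges in medium and at 60.5, 72.1 and 31.9 in large. The S phase list, 43 genes of DNA replication such as Mcm2 and Pcna, stood at 20.2, 16.1 and 12.5 in medium and at 33.9, 23.6 and 13.9 in large. Cells with at least 3 UMIs of the G2/M list were 58.8%, 50% and 49.2% of the ranges in medium, with wide overlapping intervals, and 72.0% (62.5 to 80.2), 67.3% and 49.0% (39.0 to 59.1) in large. For S phase the large sample gave 66.4% (56.6 to 75.2), 53.8% and 38.2% (28.8 to 48.4). The intervals of the lowest and highest Gpr17 range did not overlap in large, but this did not hold with cells thinned to 1000 UMIs, where the G2/M shares were 51.4% (43.8 to 59.0) and 36.6% (25.5 to 48.9). In medium the shares could not be separated at this number of cells, and at 1000 UMIs their order turned, with 30.8% and 33.3%.

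**Figure D3:**
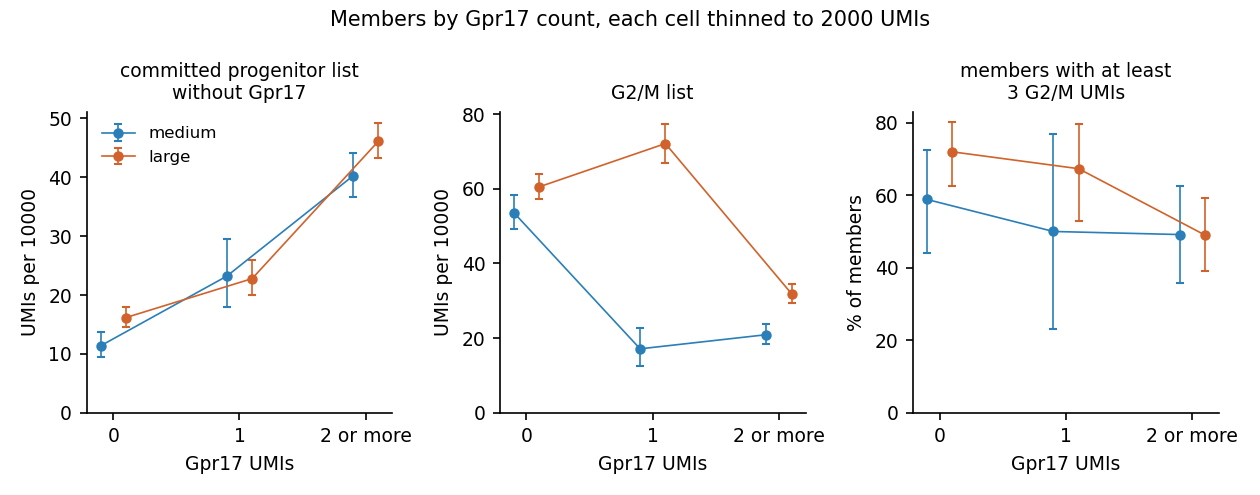
Pdgfra-type cells thinned to 2000 UMIs and split by Gpr17 UMIs (0, 1, 2 or more, horizontal axis), medium in blue and large in orange, with 95% intervals. The left and middle panels give the committed progenitor list without Gpr17 and the G2/M list in UMIs per 10000, the right panel the percent of cells with at least 3 G2/M UMIs. The committed list without Gpr17 stands at 40.3 and 46.1 in the highest range, against 11.4 and 16.2 in the lowest, while the G2/M list is lower there than at 0 Gpr17 UMIs.

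UMIs of cell cycle genes were read in many cells of both samples, and the share called cycling depended on the limit. After thinning to 2000 UMIs, 53.2% of medium cells (66 of 124, interval 44.1 to 62.2) and 62.1% of large cells (162 of 261, 55.9 to 68.0) held at least 3 UMIs of the G2/M list. For the S phase list the shares were 42.7% (33.9 to 51.9) and 52.9% (46.6 to 59.1). These intervals overlapped. Cells past both limits were 28.2% of medium (20.5 to 37.0) and 45.2% of large cells (39.1 to 51.5), whereas cells past either limit were 67.7% and 69.7%. Cells past either limit are called cycling below, which names a range of a count and not a measured division. With a limit of 5 UMIs, the G2/M shares were 29.8% and 45.6% and the S phase shares 21.0% and 34.1%, whereas without thinning the G2/M shares were 86.9% and 84.6%. Many cells lay next to the limit, 21 medium and 39 large cells with 2 G2/M UMIs and 17 and 25 with 3.

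By library, the G2/M share was 35%, 56.4%, 62.1% and 52.8% in medium and 60.7%, 54.7%, 66.2% and 67.7% in large, so that the libraries of both samples overlapped. Medium library A held 20 such cells, 7 of them past the limit. In Pdgfra+ cells without transgene the same share was 39.5% in early, 34.5% in medium and 42.9% in large, and in Lgals1-type cells 45.6% in medium and 56.9% in large. The G2/M list was also read in other CD45- cells with 0 hsEGFR UMIs, at 1530 CPM in medium and 1771 in large. In Pdgfra-type cells it stood at 3674 and 5367. A share past 3 UMIs can therefore hold cells that do not divide. Cells below both limits carried more of the committed list, 46.2 UMIs per 10000 against 37.3 in cycling cells of the medium sample and 53.0 against 33.2 in the large sample. Bcas1 stood at 5.38 against 4.35 in medium, with overlapping intervals, and at 11.7 against 5.69 in large.

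The medium and large Pdgfra-type cells were then compared gene by gene as summed CPM. A gene was counted when the ratio was at least 2-fold and its interval lay beyond 1-fold. Of 12294 genes with at least 20 UMIs, 648 (5.27%) were higher and 505 (4.11%) lower in large, and the median log2 ratio over all of them was 0.09. The counts depend on the minimum and on single cells: at least 100 UMIs left 141 higher and 124 lower, no minimum gave 831 lower, and without the cell with most UMIs of each gene 264 were lower. A mean over cells gave 1012 higher, and run 3 alone 296 lower. Of 19 progenitor genes 0 were higher and 0 lower, close to the share over all genes, with a median log2 ratio of 0.02 that was -0.068, -0.082 and -0.13 within the runs. Ptprz1 and Vcan, cell surface and matrix proteoglycans of progenitors, stood lowest among them at log2 -0.61 each. Of 15 committed progenitor genes 2 were higher, Tcf7l2 (log2 1.01) and Zfp488 (log2 1.07), both transcriptional regulators of oligodendrocyte differentiation.

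Gpr17 and Bcas1 moved apart between the samples. Gpr17 stood at 1506, 1638, 1100 and 971 CPM in the medium libraries and at 1092, 881, 904 and 754 in the large ones, with a log2 ratio of -0.55 (-0.66 to -0.45), which was -0.33 without medium library B and -0.69 without medium library D, and -0.33 in cells not cycling. Bcas1 stood at 436, 376, 691 and 349 in medium and at 1013, 695, 849 and 642 in large, with a log2 ratio of 0.80 (0.65 to 0.96). The libraries of the 2 samples overlapped for both genes, at their edges, and the direction was the same within each of the 3 runs. Bcas1 was also higher in large than in medium in Pdgfra+ cells without transgene, as given below. Of 16 myelin genes Mbp (log2 1.11), Apod (1.41) and Trf (1.23) were higher and 0 lower, beside 5.27% and 4.11% of all genes, and the list's median within runs went from -0.94 to 0.99.

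**Figure D4:**
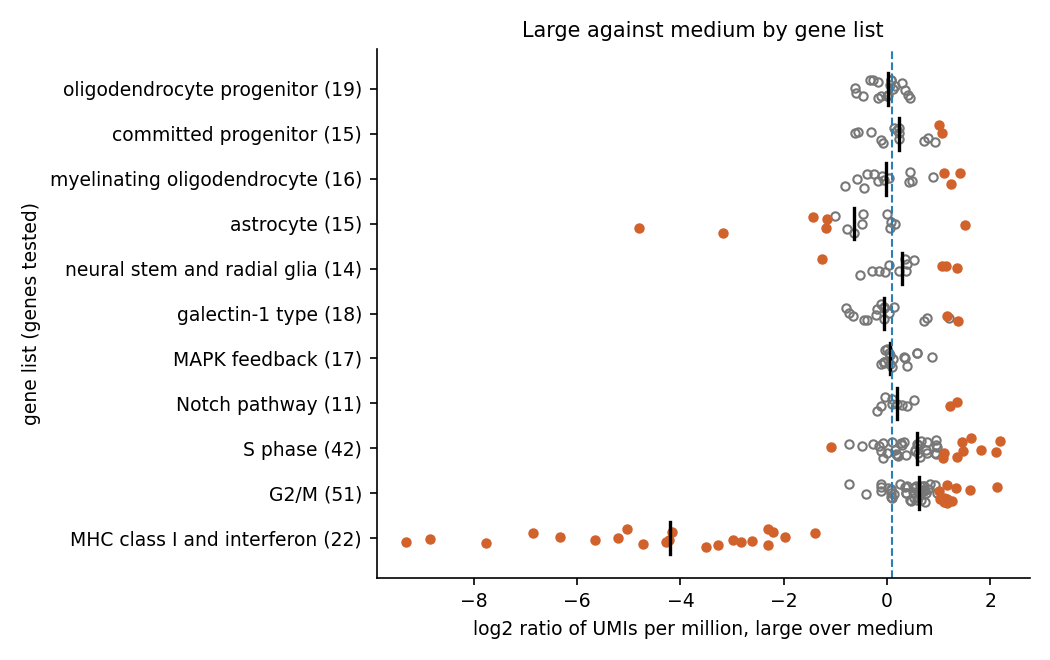
Log2 ratio of CPM in large over medium Pdgfra-type cells (horizontal axis) for the genes of 11 lists. Each circle is a gene, filled where it was at least 2-fold apart with its interval beyond 1-fold, black bars are list medians and the dashed line is the median of all genes tested (0.09). The 22 MHC class I and interferon genes all lie left of -1, with a median of -4.19, while the 19 progenitor genes centre on 0.02.

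Of the lists compared, MHC class I and interferon genes had the median farthest from that of all genes. All 22 of the 22 genes tested, of 23 in the list, were lower in large, where 4.11% of all genes were, and the direction held in each of the 3 runs for every one of them. Their median log2 ratio was -4.19, and -4.48, -4.20 and -3.63 within the runs. The summed level was 14345, 13684, 12580 and 11246 CPM in the medium libraries and 580, 567, 655 and 721 in the large ones. The lowest medium library was thus far above the highest large one. B2m, the light chain of MHC class I, stood at 2890, 2578, 2684 and 2534 CPM in medium and at 98.5, 131, 155 and 146 in large (log2 -4.28, interval -4.48 to -4.10). The heavy chain H2-D1 stood at 3992, 3954, 3535 and 3108 against 127, 89.1, 107 and 131. H2-K1, the other classical heavy chain measured, stood at 2707, 2396, 2448 and 2134 against 45.0, 40.4, 69.0 and 102.

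Other genes of the list that act in antigen presentation were lower too. Tap1, which carries peptides into the endoplasmic reticulum, had a log2 ratio of -4.22, and Tapbp, which loads them, -2.20. The immunoproteasome subunits Psmb8 and Psmb9 had -5.65 and -6.33. Among the signalling genes Irf9 had a log2 ratio of -2.61, Irf1 -1.97 and Stat2 -1.40. Interferon-induced GTPases stood near 0 in large: Igtp stood at 638 against 5.24 and Iigp1 at 497 against 0.524. Irf7 was not tested, with 13 UMIs in medium and 0 in large.

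The regions before the start of the genes B2m, Bst2, Igtp, Irf1, Isg15 and Psmb8 are shown because these genes differed together and carry letters of the elements through which interferons act. They are 150 bases each from RefSeq (GRCm38.p6), read 5′ to 3′ on the strand of the gene and ending at the base before its start in the RefSeq table. For Psmb8 this start lies inside the span of the gene in GENCODE vM21, which begins at base 34197721. Capitals mark a pair of GAAA separated by 2 bases of any kind, the core of the interferon-stimulated response element (ISRE), and TTCNNNGAA, the gamma-activated site (GAS). Matches may overlap.
B2m promoter, chr2:122147537-122147686, plus strand: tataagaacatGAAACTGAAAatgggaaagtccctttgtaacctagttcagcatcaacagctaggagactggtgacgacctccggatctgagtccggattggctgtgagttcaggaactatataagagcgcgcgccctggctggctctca
Bst2 promoter, chr8:71537473-71537622, minus strand: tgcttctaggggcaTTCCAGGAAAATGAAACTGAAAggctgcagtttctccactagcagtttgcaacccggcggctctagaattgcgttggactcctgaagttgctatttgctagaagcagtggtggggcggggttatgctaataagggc
Igtp promoter, chr11:58199406-58199555, plus strand: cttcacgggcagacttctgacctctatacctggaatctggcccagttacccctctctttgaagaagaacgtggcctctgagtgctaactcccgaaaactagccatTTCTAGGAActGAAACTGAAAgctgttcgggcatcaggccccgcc
Irf1 promoter, chr11:53769864-53770013, plus strand: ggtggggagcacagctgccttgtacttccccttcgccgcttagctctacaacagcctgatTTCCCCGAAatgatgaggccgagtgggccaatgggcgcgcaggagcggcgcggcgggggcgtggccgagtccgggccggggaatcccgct
Isg15 promoter, chr4:156200819-156200968, minus strand: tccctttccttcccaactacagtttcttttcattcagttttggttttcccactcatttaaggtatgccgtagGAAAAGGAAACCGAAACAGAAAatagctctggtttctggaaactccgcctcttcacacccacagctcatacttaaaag
Psmb8 promoter, chr17:34198045-34198194, plus strand: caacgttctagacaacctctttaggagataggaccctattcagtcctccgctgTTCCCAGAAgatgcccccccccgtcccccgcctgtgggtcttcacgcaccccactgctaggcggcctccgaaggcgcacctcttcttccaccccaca

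Both motifs were searched on both strands in 250 bases before the start, for the 20 list genes found in the RefSeq table. The ISRE core was found for 9 of them (B2m, Bst2, Gbp2, H2-T23, Ifit1, Ifit3, Igtp, Isg15 and Stat2), and in 2.98% of all 32851 promoters of the table. The GAS letters were found for 4 (Bst2, Igtp, Irf1 and Psmb8), and in 7.02% of all promoters. Either motif was found for 11 of the 20, against 9.66% of all promoters. The 20 genes had 23 promoters and a gene counted when any of them matched, whereas the share over all is per promoter. The list was made of genes that act with interferons, so a higher share was likely beforehand. Such matches describe the letters of these windows and no binding was measured.

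The difference was spread over the cells. With each cell thinned to 2000 UMIs, medium cells held a median of 24 UMIs of the MHC class I and interferon list, between 0 and 77, and large cells a median of 1, between 0 and 12. At least 10 UMIs were found in 106 of 124 medium cells (85.5%, interval 78.0 to 91.2) and in 1 of 261 large cells (0.383%, 0.00970 to 2.12). By library the share was 85.0%, 89.7%, 79.3% and 86.1% in medium and 0%, 0%, 1.47% and 0% in large. B2m was read in 131 of 137 medium cells and 117 of 299 large cells. Within the medium sample, cells with 0, 1 and at least 2 Gpr17 UMIs held 118, 141 and 150 UMIs of the list per 10000, and cycling and non-cycling cells 136 and 134, so that the list was high throughout.

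**Figure D5:**
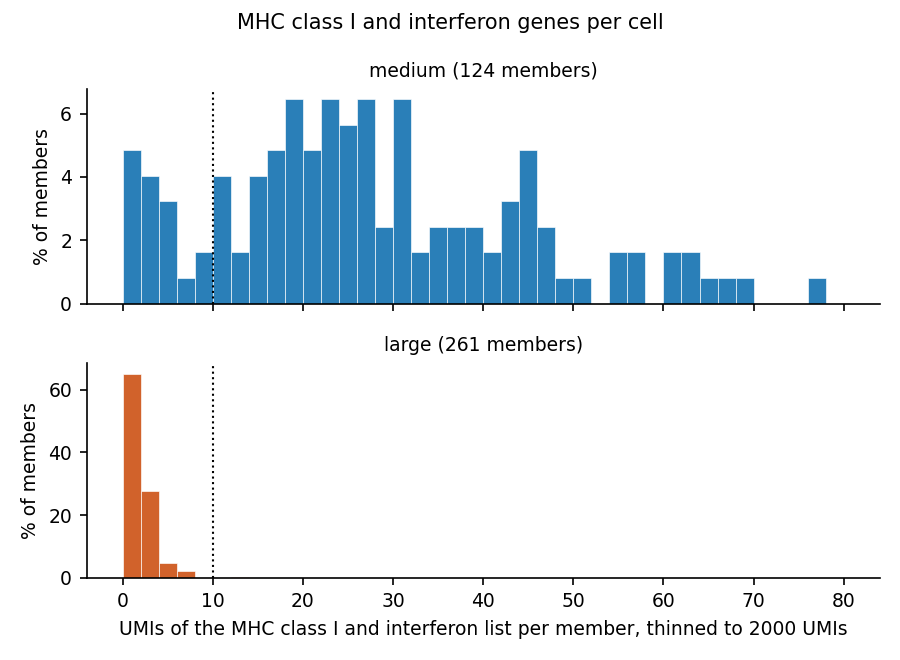
Number of UMIs of the MHC class I and interferon list per Pdgfra-type cell thinned to 2000 UMIs (horizontal axis, bins of 2 UMIs), as percent of 124 medium cells (upper panel) and 261 large cells (lower panel, with its own vertical scale). The dotted line marks 10 UMIs, reached by 85.5% of medium and 0.383% of large cells.

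Other CD45- cells of the same samples showed the same order with smaller median ratios, and this difference was not tested. In Lgals1-type cells the summed level of the list was 15688 CPM in medium and 1505 in large, with a median log2 ratio of -3.33. In Pdgfra+ cells without transgene it was 1358 in early, 3371 in medium and 1138 in large, and 17.2% of thinned medium cells of this class held at least 10 UMIs of the list. Cells outside these classes had 1737, 4028 and 967 in early, medium and large, with a median log2 ratio of large over medium of -1.29. Median depth differed between the samples, 7290 against 5668 UMIs, and its part was not tested, and the animals differed as well and cannot be told apart from the stage. Among medium Pdgfra-type cells with 0 UMIs of the microglia and macrophage markers other than Cd74, the list stood at 12726 CPM (102 cells), and in those with 1 or more at 13014 (35 cells). In large, cells with 0 such UMIs stood at 542 (interval 502 to 585, 224 cells) and those with 1 or more at 791 (725 to 861, 75 cells). Split by mural and fibroblast markers, medium cells with 0 UMIs stood at 11998 (11746 to 12254) and those with 1 or more at 14739 (14317 to 15170), and large cells at 620 and 655, with overlapping intervals. The part of other cell types in the difference was not tested.

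A class II gene and further interferon-induced genes were among the 8 lowest ratios. Ratios were ranked among genes with at least 50 UMIs whose direction was the same within run 2. Run 2 alone held at least 50 Pdgfra-type cells of each stage, and these 8 kept their direction in runs 1 and 3. H2-Eb1, a class II beta chain, stood at 260, 326, 382 and 352 CPM in the medium libraries, in 52 of 137 cells, and was at 0 UMIs in large, which makes it at least 215-fold lower there against a limit of 3 UMIs. Cd74, the class II invariant chain, had 103 UMIs in 32 medium cells and 0 in large, and was at least 63.4-fold lower. Cd74 also belongs to the list of 11 microglia and macrophage markers, of which at least 3 UMIs were read in 18.2% of medium and 2.34% of large cells. Among its other members, Csf1r had 15 UMIs in medium and 55 in large, Cx3cr1 8 and 9, P2ry12 7 and 19, Tmem119 3 and 15, Ptprc 4 and 5, C1qa 1 and 11, C1qb 1 and 1, Lyz2 3 and 0, and Tyrobp 0 and 2. The interferon-induced GTPase genes Ifi47, Tgtp1 and Tgtp2 had 233, 213 and 218 UMIs in medium and 0 in large. Tgtp1 and Tgtp2 are near-identical copies, so that their reads may be shared. Ifit3 had 124 UMIs and 0, and was at least 76.3-fold lower.

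Predicted genes completed the 8. Gm42031 had 1073 UMIs in medium and 1 in large, and Gm43305 had 1083 and 4. Both were read in most medium cells, 106 and 107 of 137, and 101 of the 107 cells with a UMI of either held the same count of both, so that they may count the same RNA and are given as 1 signal. In Lgals1-type cells Gm42031 stood at 2870 CPM in medium and 14.6 in large.

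At the other end, the 8 highest ratios belonged to genes carried by few cells. Tinagl1 had 100 UMIs in 10 large cells, 73 of them in 1 cell, Crym, which encodes a cytosolic thyroid hormone-binding protein, 101 UMIs in 19 cells, 38 in 1 cell, and Mgp 251 UMIs in 22 cells, 87 in 1 cell. The matrix genes Thbs2, Postn, Fibin and Emilin1 and the integrin gene Itga8 were read in 24, 21, 21, 27 and 15 large cells. Of 299 large cells, 238 held 0 UMIs of all 8 genes, and the 10 cells with most held 77.6% of the 1028 UMIs. The first of these cells held 17 Pdgfra and 11 Lgals1 UMIs. Lgals1-type cells of large stood at 1083 CPM for Tinagl1, 1031 for Crym and 1217 for Thbs2.

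Of 42 S phase genes 9 were higher in large, beside 5.27% of all genes, such as Cdc6 (log2 2.19), Uhrf1 (2.11) and Cdc45 (1.83), and 1 lower (Casp8ap2, -1.09), with a median of 0.59. Of 51 G2/M genes 12 were higher, such as Nek2 (2.14) and Mki67 (1.02), and 0 lower, with a median of 0.62. Mki67 stood at 0, 90.1, 180 and 85.5 CPM in the medium libraries and at 259, 141, 245 and 179 in large. Medium library A was the lowest, and within the run that holds it the median log2 ratio of the G2/M list was 2.81, against 0.53 and 0.50 in the other runs. The same direction was seen outside the Pdgfra-type cells. The S phase and G2/M medians were 0.47 and 0.44 in Lgals1-type cells and 0.12 and 0.35 in Pdgfra+ cells without transgene. In other CD45- cells with 0 hsEGFR UMIs they were 0.23 and 0.63.

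Genes of neural stem cells and glia outside the lineage gave smaller sets, to be set beside 5.27% of all genes higher and 4.11% lower. Of 14 neural stem and radial glia genes, Nes (log2 1.06), Hes1 (1.35) and Pax6 (1.14) were higher and Id3 (-1.26) lower. Of 12 neuronal genes Sox11, a transcription factor of immature neurons that progenitors also use, was higher at 388, 425, 429 and 371 CPM in the large libraries against 153, 154, 202 and 205 in medium (log2 1.18), and every large library was above every medium one. Stmn2, Gad1 and Snap25 were lower, each with most of its medium UMIs in 1 cell. Of 15 astrocyte genes S100b (log2 -1.16), Apoe (-1.44), Aldoc (-1.17), Aqp4 and Mlc1 were lower and Gja1 (1.50) higher. S100b, a calcium-binding protein that oligodendrocyte progenitors also make, stood at 1002, 1028, 752 and 674 in medium and 408, 397, 402 and 342 in large, which did not overlap. The 36 medium UMIs of Aqp4 came from 1 cell and 21 of 22 of Mlc1 from 1 cell. Without the cell with most UMIs Aqp4 turned to a log2 ratio of 3.02. The median of the astrocyte list was -0.63, against -0.65 in other CD45- cells with 0 hsEGFR UMIs. It was -0.44 in Lgals1-type cells and -0.21 in Pdgfra+ cells without transgene.

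In receptor, signalling and metabolic lists few genes were higher or lower, beside 5.27% and 4.11% of all genes, and with lists this short nothing is read from the counts. Of 7 EGFR ligand and ERBB receptor genes tested 0 were higher or lower, with Tgfa at 226 and 238 CPM and mouse Egfr at 8.71 and 12.1. Of 17 MAPK feedback genes, among them the Sprouty and Dusp genes that EGFR signalling induces, 0 were higher or lower, with a median of 0.07. Dll3, a Notch ligand of progenitors, was higher (log2 1.21), and with Hes1 made 2 of 11 Notch pathway genes. Timp1 (1.38) and Emp3 (1.17) were higher of 18 galectin-1 type genes, but not in every run: the log2 ratio of Emp3 was -0.99 in run 1 and that of Timp1 -0.23 in run 3. In glycolysis and hypoxia Slc2a1, a glucose transporter, was higher (1.25) and Adm, a hypoxia-induced peptide, lower (-1.66) of 19 genes, and Atf3 (-1.13) was lower of 19 heat shock and immediate-early genes. Of 17 cholesterol synthesis and 17 glutamate and synapse genes 0 were higher or lower. Cdkn2a, deleted in all animals, had 0 UMIs in medium and 1 in large.

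Compared with Lgals1-type cells of the same sample, Pdgfra-type cells carried the progenitor program. The rule used the contrast, so the values are a description. Of 10084 genes, 802 (7.95%) were at least 2-fold higher in both samples and 467 (4.63%) lower. Among progenitor genes 13 of 19 were higher and 0 lower, and among committed progenitor genes 9 of 14 were higher and 0 lower. The 19 include Pdgfra, whose direction the rule fixed. Olig1 stood at 1547 and 1683 CPM against 155 and 49.5, Gpr17 at 1311 and 894 against 167 and 62.2. Sox10 differed little, at 939 and 982 against 813 and 766. Among the 8 highest ratios were those of the NMDA receptor subunit Grin3a (log2 3.76 in medium and 6.55 in large), Snap91, a clathrin adaptor of synapses that had 0 UMIs in medium Lgals1-type cells (3.90 in large), Neu4 (4.41 and 5.32), Igsf21 (3.84 and 5.61), Amz1 (3.42 and 5.75), the homeobox gene Irx1 (3.68 and 5.15) and Ramp1, a receptor-modifying protein (3.70 and 5.06).

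The lowest ratios were those of Dcn, Crym, Thbs2, Timp1, Nid1, Emp3, Egfl8 and Ahnak. Crym stood at 2.90 and 52.9 CPM in Pdgfra-type cells and at 174 and 1031 in Lgals1-type cells. Of 19 galectin-1 type genes, a list named for the gene of the rule, 15 were lower and 0 higher. Of 31 S phase genes 0 and of 43 G2/M genes 1 were higher and 0 lower in both samples, and of 19 MHC class I and interferon genes 2 were lower and 0 higher. Beside 7.95% of all genes higher and 4.63% lower, nothing is read from these counts.

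Pdgfra+ cells without any transgene UMI numbered 359, of which 170 were early, 103 medium and 86 large. They were chosen by at least 2 Pdgfra UMIs and more Pdgfra than Lgals1, and Dcn, a fibroblast gene, stood at 707 and 567 CPM in medium and large, so that not all of them were oligodendrocyte progenitors. A cell that carries the transgene but gave no UMI of it can be among them. Of 9750 genes, 326 (3.34%) were at least 2-fold higher in Pdgfra-type cells in both samples and 436 (4.47%) lower. G2/M genes were 20 higher of 41 and 0 lower, and Ckap2l, Cdca3, Tpx2 and Ccnb1, all of mitosis, were among the 8 highest ratios. Ccnb1, which encodes cyclin B1, stood at 98.7 and 138 against 7.55 and 18. The others were Tubb6, Cryl1, Egr3 and Irf8. Irf8, an interferon-induced transcription factor, stood at 101 CPM in medium Pdgfra-type cells and 27.8 in large ones. In the cells without transgene Irf8 stood at 0 and 13.5, from 0 and 3 UMIs. In large its log2 ratio was 0.83 (interval -0.58 to 3.36), so Irf8 was not counted among the 326.

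Progenitor genes were lower in Pdgfra-type cells than in these cells for 5 of 19 and higher for 0, and committed progenitor genes for 2 of 14, beside 4.47% of all genes lower and 3.34% higher. Pdgfra is 1 of the 5, and its level in both classes was set by how they were chosen. The others were Cspg4, C1ql1, Pcdh15 and Bcan, with Cspg4 at 327 and 238 CPM against 733 and 782. The cells without transgene were shallower, with medians of 3540 and 2288 UMIs, and the part of depth and of their choice by Pdgfra was not tested. Neu4 stood at 160 and 188 against 511 and 661. Bcas1 stood at 447 and 779 against 136 and 630, and at 96.1 in early, so that it was higher in large than in medium in both classes. Of 12 astrocyte genes 7 were lower, and of 11 Notch pathway genes 4, where 4.47% of all genes were. The lowest ratios were those of Dcn, Serping1, Ttr, Igfbp5, Mgp, Nbl1, Fn1 and Slc4a10. Ttr, a choroid plexus gene, stood at 36.8 and 35.1 against 9514 and 2150, and was read in 28 medium and 44 large Pdgfra-type cells. The ependymal and choroid marker list, which holds Ttr, stood at 67.7 and 73.4 CPM against 9811 and 2307. The cells without transgene thus held many UMIs of other cell types, whose part in the counts of this paragraph was not tested.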

How the data were processed

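Viable CD45+ and CD45- cells were sorted from mouse brains without cerebellum after collagenase digestion, removal of myelin on Percoll and lysis of red blood cells, and were captured by inDrop single-cell RNA-seq. The authors deposited 1 table of UMI counts per gene and cell for 24 libraries, with a table that gives stage and sort of each library. Per the labels the genome build was mm10, and the study's methods name RapMap within bcbio-nextgen. The methods also name removal of free RNA and of doublets, and whether this preceded the deposited counts is not given in the sources used here.

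From these counts, cells were filtered as stated (500 UMIs, 500 genes, 20% mitochondrial UMIs) and members were taken by their raw UMIs. The members and gene lists were chosen with earlier results of these data known. Since each stage was 1 tumor sample, no test between stages was possible and no p-value is given. UMIs were summed over cells and divided by their total. Ratios between stages carried a prior of 0.5 counts and exact conditional intervals at 95%, for genes with at least 20 UMIs. Shares carried exact Clopper-Pearson intervals and a count of 0 a limit of 3 counts. For cycling shares and Gpr17 ranges each cell was thinned to 2000 UMIs and shallower cells were left out. Genes were named by the 8 highest and 8 lowest ratios among genes with at least 50 UMIs and the same direction in each run with at least 50 members per stage, or in both stages, without mitochondrial and sex-linked genes. Only run 2 held 50 members of each stage, so the direction between stages was required in that run alone. Members of lists were otherwise named by abundance, or because they were counted as higher or lower, and the latter were singled out after their values were seen. Doublets were called with Scrublet in scanpy 1.11.5, per library, and were kept. The ratios with their intervals and the thinning were tried on simulated counts with Poisson error only. Simulated cells differed in depth alone, so the part of other variation between cells was not tested. Python 3.11.15, NumPy 2.4.6, SciPy 1.17.1, pandas 2.3.3 and matplotlib 3.10.9 were used. Promoter sequences came from RefSeq (GRCm38.p6). Some items are not reported here.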

Additional observations from a re-analysis of the deposited data

Results flagged for a closer look

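Among 46 sets of 4 libraries, 1 held a library apart from the others by the gap to its neighbour over the range, and chance gives about 1 in 20. The summed level of the galectin-1 type list was 2423 CPM in Pdgfra-type cells of large library A, against 2842 to 2866 in the other 3 large libraries.

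Cells of the CD45+ sort were outside the comparisons. Of these, 61 of 3988 in the medium sample (1.53%) and 10 of 2120 in the large sample (0.472%) met the rule of the Pdgfra-type cells, and 0 of 5110 in the early sample.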

How the results depend on the processing

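Each stage was 1 tumor sample and its libraries repeat the same cells' preparation, so that a difference between stages cannot be told apart from one between animals. No paired analysis was possible because each stage was 1 tumor sample and no test was run. Each run held libraries of both stages, and ratios within runs are given instead. The median of the MHC class I and interferon list kept its direction in every alternative run, and was -3.63 within run 3 and -4.27 to -4.05 with a library left out.

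The share of Pdgfra-type cells in medium was 5.42% of CD45- cells with no filter on cells and 6.13% with thinning first, and in large 11.5% with at least 4 hsEGFR UMIs. With a library left out it was 8.06% to 9.06% and 12.7% to 13.7%. G2/M shares in medium and large were 70.2% and 77.0% at a limit of 2 UMIs, 29.8% and 45.6% at 5, and 86.9% and 84.6% without thinning. S phase shares were 59.7% and 68.2%, 21.0% and 34.1%, and 83.9% and 79.9%. With a library left out they were 50.5% to 56.7% and 60.3% to 65.1% for G2/M, and 40.0% to 47.7% and 49.2% to 57.0% for S phase.

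At least 100 UMIs per gene left 141 genes higher and 124 lower in large. No minimum gave 831 lower, run 3 alone 296 lower, and a mean over cells 1012 higher. Leaving out a library gave 591 to 797 higher and 447 to 573 lower. Leaving out, gene by gene, the cell with most UMIs from the stage with the higher level, an alternative chosen after seeing the data, gave 264 lower, and turned Aqp4 to a log2 ratio of 3.02.

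List medians (log2 large over medium) moved as follows. Oligodendrocyte progenitor genes gave -0.068, -0.082 and -0.13 within runs 1, 2 and 3, 0.074 with at least 4 hsEGFR UMIs, 0.093 in cells not cycling, 0.067 in cells with 0 Lgals1 UMIs (also chosen after seeing the data), -0.028 without the top cell and -0.070 to 0.065 with a library left out. Glutamate genes gave 0.31 and 0.27 within runs 1 and 3, 0.12 at 100 UMIs, 0.088 without the top cell and 0.10 to 0.26 with a library left out. Notch genes gave -0.20 within run 1, 0.48 as a mean over cells, 0.56 in cells not cycling, 0.46 without the top cell and 0.12 to 0.41 with a library left out. Neuronal genes gave 0.25 within run 1 and with 0 Lgals1 UMIs, 0.17 as a mean over cells and -0.19 to 0.23 with a library left out. Within run 1 astrocyte genes gave 0.31, stem genes -0.21, S phase 0.93, G2/M 2.81 and heat shock -0.34. S phase gave -0.14 in cells not cycling, a set chosen by low cycle counts. MAPK feedback genes gave 0.49 in those cells, and 0.39 and 0.42 within runs 2 and 3. Within run 3 committed progenitor genes gave 0.78, galectin-1 type 0.19, glycolysis -0.32 and cholesterol synthesis 0.52. Committed progenitor genes gave 0.010 to 0.67 with a library left out, the highest without medium library B.

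With cells thinned to 1000 UMIs, the G2/M share at 0 and at least 2 Gpr17 UMIs was 30.8% and 33.3% in medium, which turned their order, and 51.4% and 36.6% in large, where the intervals then overlapped. The committed list was then 17.4 and 80.3 UMIs per 10000 in medium and 21.4 and 81.3 in large, and the G2/M list 42.7 at 0 in medium and 37.3 at 2 or more in large. Without Gpr17, an alternative chosen after seeing the data, the committed list stood at 40.3 in medium and 46.1 in large at 2 or more Gpr17 UMIs.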
